A study of Mus musculus with 16 samples.

Results

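Transcript levels of the voltage-gated calcium and sodium channel genes were examined in whole brains of adolescent mice that drank nicotine, ethanol, both or neither. These were the genes of the count table whose symbol begins with Cacna1, Cacna2d, Cacnb or Cacng, or has the form Scn, a number and a or b. The rule took 39 of the 24062 genes in the table, 26 for calcium channels and 13 for sodium channels, and it used no measured value. Scn2a is listed there under the older symbol Scn2a1, which the rule does not match, so it was not counted as a member. The levels of these genes differed little between groups. Cacna2d1, an auxiliary calcium channel subunit, was 13.7% lower after ethanol alone than in water controls (adjusted p = 0.0424 by edgeR's quasi-likelihood test). In the reported fits of all mice it was the only member called in any comparison. That call held in only 1 of the 8 fits that left out 1 mouse. Some other settings called other members for ethanol, such as Cacna1c and Cacnb2, as given at the end.

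The 16 female C57BL/6J mice, an inbred strain, were killed on postnatal day 45, and each whole brain with the cerebellum gave 1 library. All mice were singly housed and drank from 3 bottles for 22 h per day. The bottles held water in the Water-Water (WW) and Water-Ethanol groups and 200 µg/ml nicotine in the Nicotine-Water (NW) and Nicotine-Ethanol (NE) groups. On the last 4 days a single tube was offered in the dark phase, for 2 h on the first days and 4 h on the last, holding 20% v/v ethanol for Water-Ethanol and NE and water for WW and NW. The nicotine bottles were away during those sessions, and the brains were taken when the last session ended. The paper reports that in the last session NE mice drank more ethanol than Water-Ethanol mice and reached higher blood ethanol. Nicotine and ethanol dose thus cannot be told apart between NE and Water-Ethanol or in the interaction of both. There were 4 mice in each group, named here by the numbers in their labels, and the plots mark the Water-Ethanol group by its initials.

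A voltage-gated calcium channel is built on an alpha1 subunit, the protein that forms the pore and senses voltage. Beta and alpha2delta subunits carry it to the membrane and tune its gating, and some alpha2delta proteins are also targets of gabapentin. Cav1 (L type) channels link depolarization to gene expression, Cav2 channels trigger transmitter release, and Cav3 (T type) channels open near rest and support burst firing. Most gamma subunits act in the brain as TARPs, proteins that carry AMPA-type glutamate receptors to synapses. A voltage-gated sodium channel has an alpha subunit that forms the pore and carries the rising phase of the action potential, together with beta subunits that modify gating and act in cell adhesion.

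Some alpha subunit genes of sodium channels share identical stretches of coding sequence, and within them this bears on how the reads of 150 bases could be assigned. Among the longest annotated coding sequences of the 39 members and Scn2a1 in GENCODE (GRCm38), 780 pairs were compared. In 2 pairs an identical run of at least 150 bases was found, Scn1a with Scn2a1 and Scn3a with Scn9a, so a read inside such a run fits both genes equally. Windows of 150 bases with an identical copy in another of these genes were 0.66% of those of Scn1a, 0.66% of Scn2a1, 0.93% of Scn3a and 0.91% of Scn9a. No other coding sequence compared held such a window. Between the calcium channel genes the longest identical run was 68 bases, shared by Cacna1g and Cacna1i. Exons of Cacna1d, Cacna1h and Scn9a overlap exons of Chdh, Tpsg1 and Gm13629 on the opposite strand by 528, 156 and 319 bases. The study's methods name a stranded kit and its labels an unstranded one, and whether counting used strand is not given in the sources used here, so reads of those stretches cannot be told apart with certainty.

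The members are long genes. Their median span was 97.7 kb (10.3 to 817) and their median number of exons 27, beside 14.7 kb and 6 exons over all 24062 genes.

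Total counts ran from 27100352 to 32880979 per mouse. Levels within a gene are given below as normalized counts, which are counts scaled to a common library size with TMM factors. The summed normalized counts of Rbfox3, Snap25, Syt1, Tubb3 and Map2, markers of neurons, were 171313.6 to 179827.1 in WW, 150438.9 to 173056.1 in NW, 162483 to 172934.7 in Water-Ethanol and 162559.3 to 170866.3 in NE, the lowest in mouse NW 7. In bulk tissue, fewer cells of a type and less RNA per cell cannot be told apart. In 2 mice the markers of the cerebellum were low. Gabra6, a receptor subunit of cerebellar granule cells, had 1070.2 normalized counts in WW 21 and 1654.8 in NW 10, against 3423.3 to 4487.2 in the other 14 mice. The summed level of 6 granule cell markers ranged from 9161.8 to 31167.4 in WW, 13487.7 to 31297.6 in NW, 23951.9 to 28616.8 in Water-Ethanol and 25412 to 30534.5 in NE, with no marker at 0 in any group. Differences between groups that these mice moved by over 1.5 times are given below with and without them for the members named. The sum of 4 skeletal muscle markers reached 845.1 in NW 7, against at most 140.1 in WW, 118.9 in Water-Ethanol and 135.6 in NE. The counts of the ribosomal gene Rn45s reached 1099350 in NW 10.

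Levels between genes were compared only as FPKM, which is scaled for transcript length. Mean FPKM over the 16 mice was 1 or more in 29 of the 39 members and 10 or more in 25. Cacng7, a TARP, had 99.0 (89.7 to 103) and Scn2b, a sodium channel beta subunit, 92.9 (86.6 to 97.0), and their ranges overlapped. In the 29 members at 1 FPKM or more, the coefficient of variation over all 16 mice, treated and untreated, was 3.2% to 13.4% with a median of 6.67%.

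**Figure D1:**
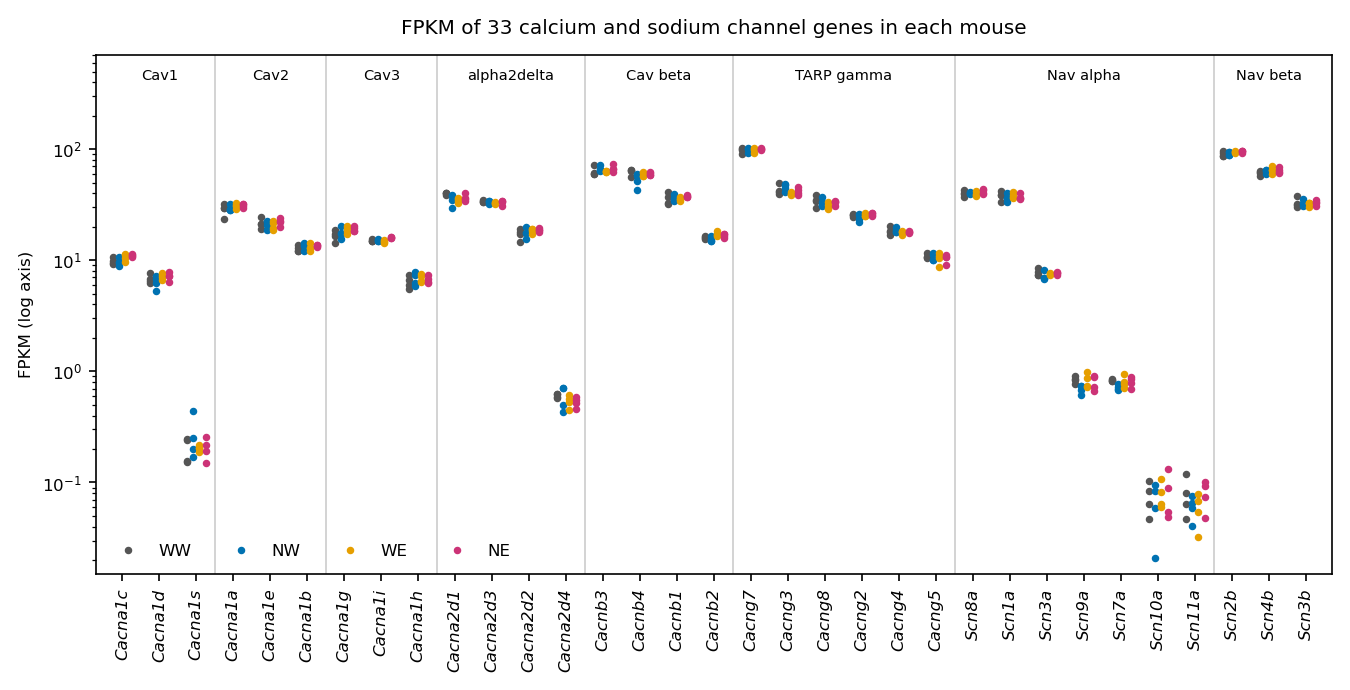
FPKM (log axis) of 33 of the 35 tested members in each mouse, 1 point per mouse, coloured by group and ordered by subunit family. Mean levels run from 0.0686 in Scn11a and 0.0746 in Scn10a to 99.0 in Cacng7, while the 4 groups lie close together within each gene.

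Among the pore-forming calcium channel genes Cacna1a, which encodes the P/Q-type subunit of presynaptic terminals, was the highest at 30.1 FPKM (23.6 to 33.0). Cacna1e (R type) followed at 21.4 and Cacna1b (N type) at 13.2. The T-type genes Cacna1g, Cacna1i and Cacna1h stood at 18.2, 15.3 and 6.73. Of the L-type genes, Cacna1c had 10.3 and Cacna1d 6.88, whereas Cacna1s, the skeletal muscle form, had 0.218. Cacna2d1 led the alpha2delta genes at 36.7, with Cacna2d3 at 33.4 and Cacna2d2 at 18.1, and Cacna2d4 was at 0.567. Cacnb3 led the beta genes at 65.2 (59.6 to 74.1), and its range overlapped that of Cacnb4 at 58.7 (42.7 to 64.7), whereas Cacnb1 and Cacnb2 had 36.3 and 16.4. Below Cacng7, the TARP genes Cacng3, Cacng8, Cacng2, Cacng4 and Cacng5 had 42.6, 32.9, 25.3, 18.2 and 10.6. Among the members, Scn8a led the sodium channel alpha genes at 40.4 (37.0 to 43.5), and its range overlapped that of Scn1a at 37.6 (33.3 to 42.2). Scn2a1, an alpha gene that is not a member, was not ranked, and its normalized counts are given below. Scn3a, the form best known from the developing brain, was at 7.54. Scn9a, Scn10a and Scn11a, which are best known from sensory neurons, were at 0.79, 0.0746 and 0.0686. The 4 members that had too few reads for the test were Scn4a (0 to 4 reads per mouse) and Cacng1 (0 to 7 reads), both of skeletal muscle, Cacng6 (2 to 9 reads) and the retinal Cacna1f (1 to 8 reads). After Scn2b, the sodium channel beta genes Scn4b and Scn3b had 63.6 and 32.7.

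Fold changes between groups were small. Of the 35 members with enough reads, 0 were called between NW and WW by edgeR's quasi-likelihood test at an adjusted p-value under 0.05, where 0% of the 15344 genes tested were called. Between Water-Ethanol and WW 1 of 35 was called, and 0.457% of 15323 genes were (0.183% as lower and 0.274% as higher). Between NE and WW 0 were called against 0.313% of 15313 genes. NE was also compared with Water-Ethanol and with NW, and each comparison called 0 members and 0% of genes. In a fit of all 16 mice, 0 members were called for ethanol, where 4.5% of 15592 genes were called (1.56% lower and 2.94% higher), 0 for nicotine, where 0% were, and 0 for the interaction of both, where 0% were. Members with an unadjusted p-value under 0.05 in that edgeR test numbered 4 between NW and WW, 4 between Water-Ethanol and WW, 5 between NE and WW, 1 between NE and Water-Ethanol, 2 between NE and NW, 5 for ethanol, 1 for nicotine and 3 for the interaction. As shares of the 35 these were 11.4%, 11.4%, 14.3%, 2.86%, 5.71%, 14.3%, 2.86% and 8.57%, and the shares over all genes in the same order were 8.44%, 19.3%, 17.5%, 5.8%, 11.9%, 22.9%, 10.3% and 6.76%. For ethanol against water the members thus stood below the share of all genes, and no test of that difference was made. DESeq2 was run without the filter on low counts, and tested 39 members between NW and WW and between Water-Ethanol and WW. The number of genes it tested is not given here, so its calls are set beside totals and not shares. DESeq2 called 0 members between NW and WW, 1 between Water-Ethanol and WW, 1 between NE and WW and 2 for ethanol, named below. It called 0 between NE and Water-Ethanol, between NE and NW, for nicotine and for the interaction. Over all genes DESeq2 called 121 between NW and WW, 605 between Water-Ethanol and WW, 508 between NE and WW, 2 between NE and Water-Ethanol, 92 between NE and NW, 1073 for ethanol, 98 for nicotine and 1 for the interaction.

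The median log2 fold change of the 35 members was 0 between NW and WW, -0.004 between Water-Ethanol and WW and 0.048 between NE and WW, beside 0.01, 0.002 and 0.004 over all genes tested. Between NE and Water-Ethanol 27 of the 35 estimates lay above 0, with a median of 0.031 beside -0.001 over all genes, and between NE and NW 25 did, with a median of 0.037 beside 0.002. For ethanol over all mice 25 lay above 0 as well, with a median of 0.022 beside 0.002. Members measured in the same mice are not independent, and the share of all genes above 0 is not given here. These counts are a description and were not tested. The median half-width of a member's 95% interval for NW, Water-Ethanol and NE against WW was 0.172, 0.14 and 0.146 on the same log2 scale, which limits what 4 mice per group can show. In simulated counts for Water-Ethanol and WW the test recovered 38.8% of genes changed by 0.25 on the log2 scale, 83.6% at 0.5 and 100% at 1. Of its 162 calls 14 were of genes that had not been changed. The changes were placed in genes with higher counts, and the simulated mice held no shift shared between genes, such as low cerebellar markers. The comparisons with WW share their 4 control mice, whereas Water-Ethanol with WW and NE with NW share no mouse.

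**Figure D2:**
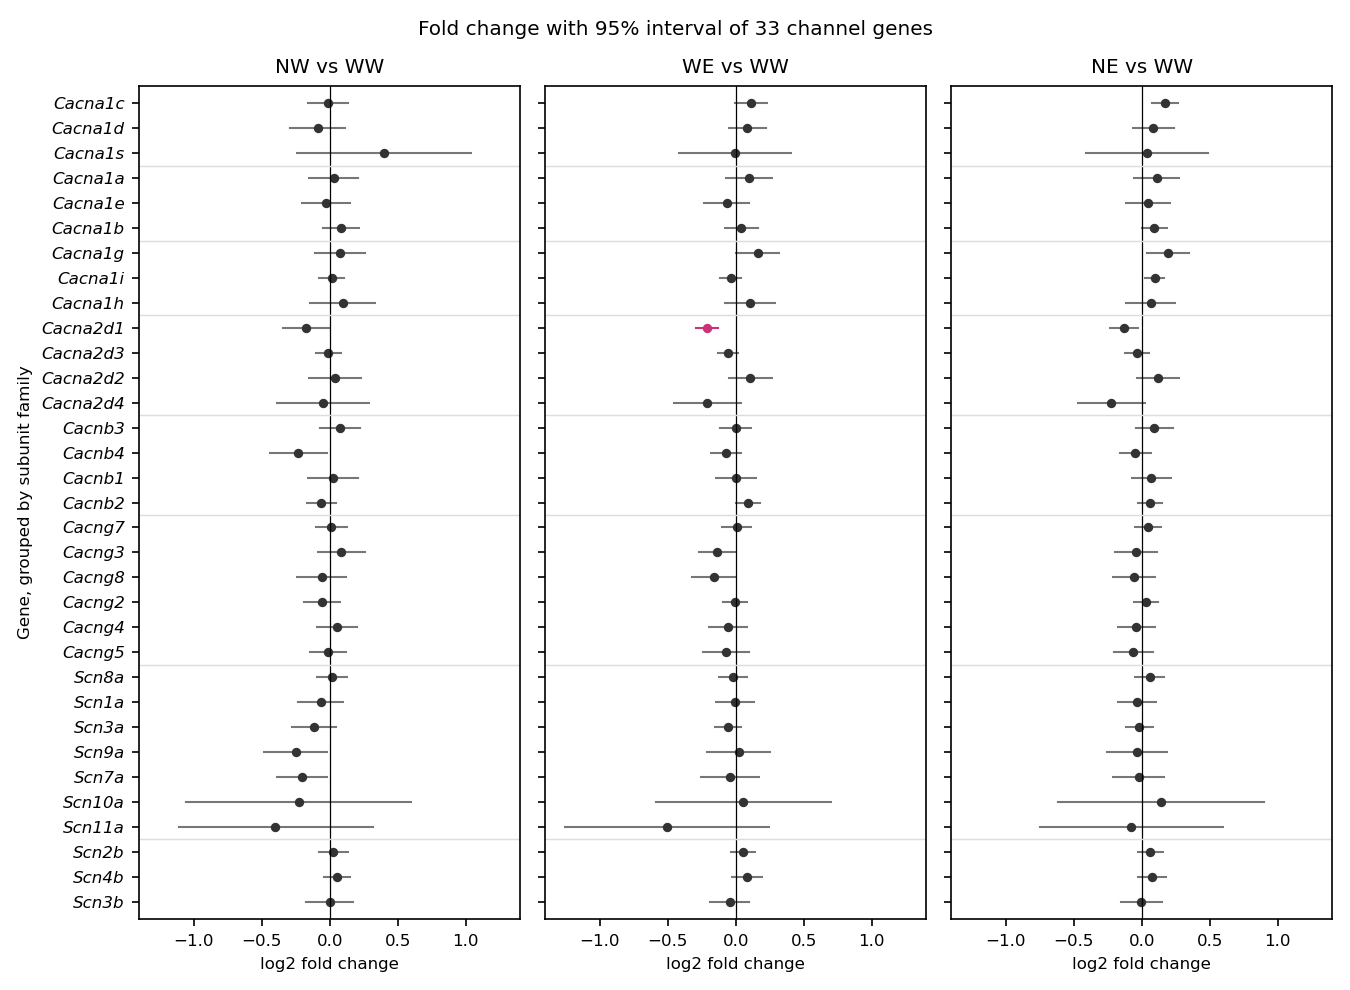
Log2 fold change with its 95% interval (edgeR) of 33 of the 35 tested members in NW, Water-Ethanol and NE against WW, ordered by subunit family. Points run from -0.51 to 0.40, the widest intervals are those of Scn10a, Scn11a and Cacna1s, which have few reads, and the coloured point is Cacna2d1 in Water-Ethanol (-0.21, adjusted p = 0.0424 by edgeR).

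Cacna2d1 (chromosome 5 from 15934691 to 16374511, plus strand, 40 exons) encodes alpha2delta-1. Its normalized counts were 8598.1, 8670.2, 8500.9 and 8198.6 in WW 18, 19, 20 and 21. In Water-Ethanol 13, 14, 15 and 16 they were 7614.9, 6988.1, 7476.2 and 7164.1. All Water-Ethanol mice thus lay below all WW mice (8492 ± 208 in WW and 7311 ± 286 in Water-Ethanol, SD, n = 4; exact permutation test, two-sided, p = 0.0286, the smallest 4 against 4 mice allow). On the log2 scale the difference was -0.21 (standard error 0.0373, 95% interval -0.29 to -0.13, adjusted p = 0.0424 by edgeR). Without WW 21, the control with low cerebellar markers, it was -0.23 (adjusted p = 0.0101 by edgeR). Leaving out any 1 of the other 7 mice ended the call and moved the adjusted p to between 0.0526 and 0.145. In limma on log2(FPKM + 1) the adjusted p was 0.113 and with offsets for GC content 0.0703. For the same groups in a fit of all 16 mice it was 0.159, whereas DESeq2 gave 5.62e-05. Some cell markers differed between the same groups. Syt1, a synaptic vesicle protein, had 41073.2 to 45880.2 normalized counts in Water-Ethanol and 49250.4 to 49710 in WW, and Map2, of dendrites, had 28044.6 to 28944.8 and 30372 to 31314.2, without overlap. Rbfox3, Snap25 and Tubb3 overlapped. On average Tubb3 was lower in Water-Ethanol, whereas Rbfox3 (7151.9 to 7846.1, and 7000.4 to 7615.5 in WW) and Snap25 (76519.6 to 83373.4, and 74815.7 to 83489.3 in WW) were higher. In edgeR's test of Water-Ethanol against WW 0 of the 5 neuronal markers were called and 2 had an unadjusted p under 0.05 (median log2 difference -0.056). For microglia these were 0 and 3 of 4 (median -0.262) and for oligodendrocyte precursors 0 and 2 of 3 (median -0.165). For oligodendrocytes they were 0 and 3 of 4 (median -0.151), and for the olfactory bulb 0 and 2 of 5 (median -0.369). Other markers were higher in Water-Ethanol. For the choroid plexus 1 of 3 was called and 2 had such a p (median 0.174). For cerebellar granule cells and Purkinje cells 0 of 6 each were called or had such a p (medians 0.23 and 0.17). The part of cell makeup in the Cacna2d1 difference was not tested.

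In the NE mice 2, 3, 4 and 5 Cacna2d1 had 7528.2, 7728.6, 7233.9 and 8494.2 normalized counts, and in NW 7, 8, 10 and 11 it had 6194.6, 8114.3, 8380.1 and 7448.7. NW 7 was the lowest of all 16 mice, and both groups overlapped WW. The log2 fold change against WW was -0.13 in NE (adjusted p = 0.19 by edgeR) and -0.17 in NW (adjusted p = 0.592 by edgeR), or -0.09 in NW without NW 7. With GC content offsets both were -0.07 (adjusted p = 0.527 and 0.998 by edgeR). Between NE and NW, the ethanol comparison in nicotine-exposed mice, it was 0.04 (standard error 0.0814, 95% interval -0.14 to 0.21), and 0.09 without NW 10. The ethanol difference of Cacna2d1 over all 16 mice was -0.09 (95% interval -0.19 to 0.02, adjusted p = 0.298 by edgeR). The interaction, which asks whether the ethanol difference changes with nicotine, was 0.26 on the log2 scale (95% interval 0.05 to 0.46, adjusted p = 0.687 by edgeR over all 16 mice), and so the 2 ethanol comparisons were not shown to differ. It was 0.17 without NW 7 and 0.17 with GC content offsets. Cacna2d3, the alpha2delta-3 gene, also had all Water-Ethanol mice (3275.1 to 3437.9 normalized counts) below all WW mice (3452.6 to 3625.8), at a log2 fold change of -0.06 that did not pass the test (adjusted p = 0.355 by edgeR). These 2 were the only members whose Water-Ethanol and WW mice did not overlap, 2 of 35 where 10.8% of all genes did not overlap.

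Among the pore-forming genes Cacna1c (chromosome 6 from 118587240 to 119196409, minus strand, 53 exons), the main L-type subunit of brain and heart, came nearest to a call between NE and WW. It had 4432.3, 4199.8, 4332 and 4279.5 normalized counts in NE 2, 3, 4 and 5, above the 4170.4, 3742.7, 3631.7 and 3813.9 of WW 18, 19, 20 and 21. The groups did not overlap (4311 ± 97.5 in NE and 3840 ± 233 in WW, SD, n = 4; exact permutation test, two-sided, p = 0.0286), and NE was higher by 0.17 on the log2 scale (standard error 0.044, adjusted p = 0.0929 by edgeR and 0.0237 by DESeq2). That permutation p is again the smallest 4 against 4 mice allow. In Water-Ethanol 13, 14, 15 and 16 Cacna1c had 4400.7, 3790.9, 4320.1 and 4072.8, and the difference from WW was 0.11 (adjusted p = 0.271 by edgeR). In NW 7, 8, 10 and 11 it had 3617, 3760.3, 4305.8 and 3512.8, with NW 10, the mouse with low cerebellar markers, the highest of them. NE against NW gave 0.18 (adjusted p = 0.281 by edgeR), and 0.24 without NW 10 (adjusted p = 0.117). Over all 16 mice the ethanol difference was 0.15 (standard error 0.0425, 95% interval 0.06 to 0.24, adjusted p = 0.0543 by edgeR). DESeq2 put that adjusted p at 0.0229, and edgeR without WW 21 and NW 10 at 0.012.

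Cacna1i (chromosome 15 from 80287238 to 80398292, plus strand, 37 exons), a T-type gene, was the member for which the NE mice stood apart. It had 4491.6, 4630.4, 4513.6 and 4572 normalized counts in NE 2, 3, 4 and 5. All NE mice lay above the highest Water-Ethanol mouse (4310.8), the highest WW mouse (4416.9) and, by the least margin, the highest NW mouse, NW 10 at 4491.5. The means were 4552 ± 62.4 in NE, 4149 ± 121 in Water-Ethanol, 4264 ± 106 in WW and 4305 ± 146 in NW (SD, n = 4; exact permutation test of NE against each, two-sided, p = 0.0286). Groups of 4 mice without overlap always give that permutation p, so it adds nothing to the separation. The log2 differences of NE were 0.13 from Water-Ethanol (standard error 0.0334, adjusted p = 0.834 by edgeR), 0.10 from WW (adjusted p = 0.167) and 0.08 from NW (adjusted p = 0.459). It was the only member with no overlap between NE and Water-Ethanol, where 3.52% of genes had none, and between NE and NW, where 7.43% had none. With Cacna1c it made 2 of 35 between NE and WW, where 10.7% of genes had none. Over all mice its nicotine difference was 0.07 (95% interval 0.02 to 0.13, adjusted p = 0.298 by edgeR), the smallest p of the members for nicotine, and its interaction was 0.12 (adjusted p = 0.71). With GC content offsets the difference of NE from WW was 0.02 (adjusted p = 0.797 by edgeR) and that of nicotine 0.03.

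Cacna1g, the T-type gene of thalamic relay and cerebellar output neurons, had 4475.2, 4184, 3998.2 and 3415.2 normalized counts in WW, the last in WW 21. It had 4666.4, 4133.5, 4798.7 and 4369.2 in Water-Ethanol and 4631, 4411.8, 4891.8 and 4438.4 in NE. The log2 fold changes against WW were 0.16 in Water-Ethanol (adjusted p = 0.241 by edgeR) and 0.20 in NE (adjusted p = 0.189), and without WW 21 they were 0.09 and 0.12. With GC content offsets the value for NE was 0.13. The ethanol difference over all mice was 0.14 (adjusted p = 0.126 by edgeR), or 0.08 without WW 21 and NW 10. The low cerebellar markers of both mice moved with this gene, and their part in the differences was not tested. Cacna1a, the highest of the pore-forming genes by FPKM, had 5344.7 in WW 21 and 6393.5 to 7517.2 normalized counts in the other 15 mice. Its log2 fold change was 0.03 for NW, 0.10 for Water-Ethanol mice and 0.11 for NE against WW, with adjusted p-values of 0.947, 0.51 and 0.497 by edgeR. Without WW 21 and NW 10 these were -0.04, 0.01 and 0.02, so the first changed sign. Cacna1s had 80.2 normalized counts in NW 7, the mouse with the high skeletal muscle markers, and 28.3 to 46.5 in the other 15 mice. Whether the muscle RNA had a part in that value was not tested.

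**Figure D3:**
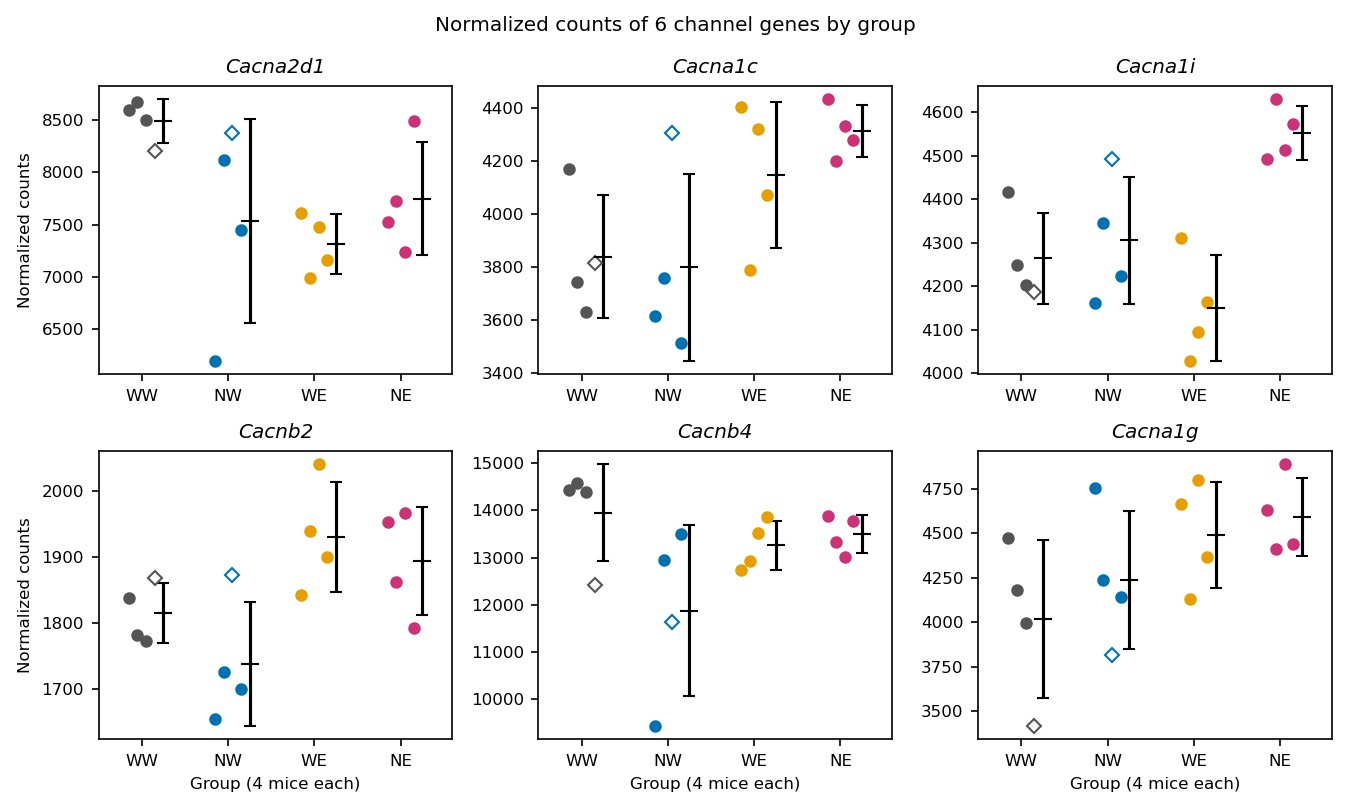
Normalized counts of 6 members by group, 1 point per mouse with the group mean and SD (n = 4); open diamonds are WW 21 and NW 10, the mice with low cerebellar markers, and each axis starts above 0. Cacna2d1 is lower in every Water-Ethanol mouse (at most 7614.9) than in every WW mouse (at least 8198.6), and Cacna1i is highest in NE.

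The beta genes encode the cytoplasmic subunits that bind the pore-forming subunit directly. Cacnb2 (chromosome 2 from 14604306 to 14987908, plus strand, 16 exons) had 1837.7, 1782.6, 1773.3 and 1868.7 normalized counts in WW and 1655.2, 1726.3, 1872.2 and 1699.9 in NW. It had 1841.8, 1938.2, 2040.2 and 1899.4 in Water-Ethanol and 1952.7, 1861.6, 1966 and 1792.6 in NE. The ethanol groups were thus higher on average but overlapped the groups on water. The ethanol difference over all 16 mice was 0.11 on the log2 scale (standard error 0.0325, adjusted p = 0.0667 by edgeR), and 0.13 without WW 21 and NW 10 (adjusted p = 0.0214 by edgeR). Between Water-Ethanol and WW it was 0.09 (adjusted p = 0.25 by edgeR) and between NE and NW 0.12 (adjusted p = 0.384), 2 comparisons that share no mouse. With GC content offsets they were 0.14 and 0.07.

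Cacnb4 (chromosome 2 from 52428320 to 52676609, minus strand), the beta4 gene that is abundant in the cerebellum, had 14439.7, 14575.4, 14381.9 and 12408.1 normalized counts in WW. In NW 7, 8, 10 and 11 it had 9431.4, 12938.5, 11638.4 and 13502.2. The log2 fold change of NW against WW was -0.23 (standard error 0.0964, adjusted p = 0.55 by edgeR) and -0.14 without NW 7. It was -0.13 with GC content offsets (adjusted p = 0.998 by edgeR). Cacnb4 was lowest in NW 7, as were 7 of the 32 members with a mean of at least 50 normalized counts, while over the 13389 genes at that level NW 7 was lowest in 19.1%. Water-Ethanol lay between 12735.8 and 13859.8 and NE between 13020.9 and 13888.5. Cacnb3, the most abundant beta gene by FPKM, had 4307.7, 4443, 4324.7 and 5160.1 in WW and 4491.4 to 4665.5 in Water-Ethanol, against 4546.4 to 5324.5 in NE. Its difference between NE and Water-Ethanol was 0.09 (adjusted p = 0.834 by edgeR) and 0.05 without NE 3. For Cacnb1 the same difference was 0.07 (adjusted p = 0.834 by edgeR) and 0.04 with GC content offsets.

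The TARP genes did not pass the test in any comparison. Cacng3, the gamma-3 gene of cortical neurons, had 1670, 1669.1, 1650.8 and 1728.4 normalized counts in Water-Ethanol and 1693.9, 1805.6, 1762.6 and 2129.9 in WW, the last in WW 21. The log2 fold change of Water-Ethanol against WW was -0.14 (adjusted p = 0.258 by edgeR) and -0.06 without WW 21. For ethanol over all mice it was -0.13 (adjusted p = 0.116 by edgeR) and -0.07 without WW 21 and NW 10. Cacng7, the most abundant TARP gene by FPKM, ranged from 2014.5 to 2306.8 over the 16 mice, and its differences from WW were 0.01 for NW, 0.01 for Water-Ethanol mice and 0.05 for NE. Without WW 21 and NW 10 they were 0.01, -0.03 and 0.01, so the second changed sign.

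The sodium channel alpha genes did not pass edgeR's test in the reported fits of all mice. Scn7a, the atypical sodium-sensing channel of glia and circumventricular organs, had 144.3, 161.5, 146.4 and 152.8 normalized counts in NW, all below the 168.1 to 178.4 of WW. It was the only member with no overlap between NW and WW, 1 of 35, where 5.96% of genes had none. On the log2 scale NW differed from WW by -0.20 (standard error 0.0839, adjusted p = 0.55 by edgeR). With GC content offsets the difference was -0.09 (adjusted p = 0.998), and on the log2(FPKM + 1) scale, which understates changes of low genes, also -0.09. Water-Ethanol and NE spanned 147.6 to 197.8 and 152.7 to 184.6, and both overlapped WW. Scn9a had 146.2, 178.7, 196.6 and 189.9 in NW and 192.8 to 230.7 in WW, a log2 fold change of -0.25 (adjusted p = 0.561 by edgeR) that was -0.12 on the log2(FPKM + 1) scale. Scn8a, the alpha gene of nodes of Ranvier and axon initial segments, ranged from 11913.9 in WW 21 to 14096.7 in NE 5, and the difference between NE and Water-Ethanol was 0.08 (adjusted p = 0.834 by edgeR). Scn11a had 5.3 to 19.5 normalized counts, and its interaction of 0.83 had a 95% interval from -0.11 to 1.78 (adjusted p = 0.779 by edgeR).

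Leaving out WW 21 changed some of these counts. Between Water-Ethanol and WW 2 of 35 members were then called by edgeR, Cacna2d1 among them, where 5.17% of genes were called. For ethanol over all mice but WW 21 and NW 10 it was 3 of 35, with Cacna1c and Cacnb2 among them, beside 6.77% of genes. Between NE and WW without WW 21, 0 members were called by edgeR beside 1.84% of genes, and Cacna1c came nearest there (adjusted p = 0.0822). Scn2a1 had 13623.1 to 16118.5 normalized counts in WW, 12786.2 to 15258.3 in NW, 13852.1 to 14704.4 in Water-Ethanol and 13966 to 15847.7 in NE, which overlap.

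Both mice with low cerebellar markers lay outside the range of the other 14 mice for 8 of the 35 members. In 3 of 35 members, Cacna1g and Cacna2d2 among them, both mice were lower than all the other 14, and so they were in 5.08% of all genes. Cacnb1, Scn3a, Cacng8, Cacng3 and Scn3b were higher in both, 5 of 35 where 3.08% of all genes did. Cacna2d2, the alpha2delta-2 gene of Purkinje cells, had 2282.1 in WW 21 and 2505.7 in NW 10, against 2735.5 to 3124.6 normalized counts in the others. Cacng3 had 2129.9 and 2138.7 against 1650.8 to 1989.1, and the mean of both mice was 20.3% above that of the others. For Cacna1g the mean was 18.5% lower. These mice were picked by the cerebellar markers and not by treatment, so the values are a description.

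**Figure D4:**
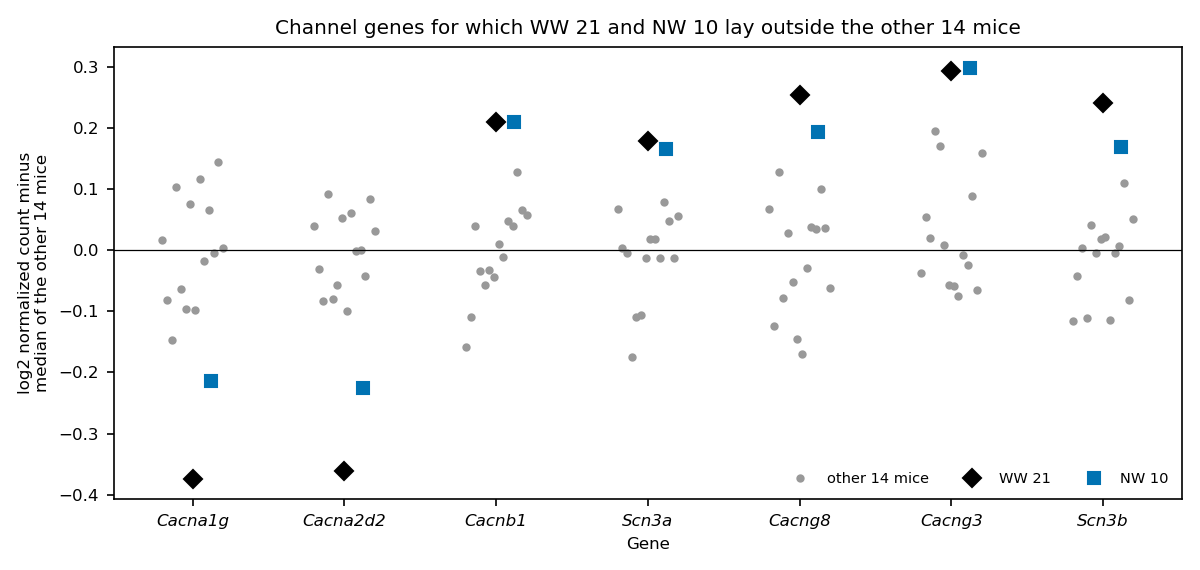
Log2 normalized counts of 7 members in WW 21, NW 10 and the other 14 mice, each minus the median of those 14. Both mice lie below all others for Cacna1g and Cacna2d2 and above all others for Cacnb1, Scn3a, Cacng8, Cacng3 and Scn3b.

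Genes listed beside the members were partners of these channels and genes of sodium leak and calcium handling, whose products need not bind them. On the sodium list 14 were in the table. Among them were the Fgf11 to Fgf14 group of fibroblast growth factors that stay inside the cell, ankyrins, Nfasc, Nrcam and Nalcn. On the calcium list 31 were, with calmodulins, Camk2 genes, calcium pumps and exchangers, Rims and the release channels. By edgeR's test 0 of the 14 and 0 of the 31 had an adjusted p-value under 0.05 in each comparison except for ethanol over all mice. There 1 of the 14 did, beside 4.5% of all genes. This was Fgf11, whose product binds sodium channel alpha subunits. It had 975, 808.8, 873 and 785.9 normalized counts in WW 18, 19, 20 and 21, 879.3 to 1014.8 in NW, 984 to 1055.4 in Water-Ethanol and 989.9 to 1052 in NE. The mice on ethanol thus lay above 7 of the 8 mice on water, and the log2 difference was 0.19 (standard error 0.0432, adjusted p = 0.0201 by edgeR). The lowest mice of WW and NW were WW 21 and NW 10, which have low cerebellar markers. The Fgf11 difference without them is not given here. Against WW alone it was 0.25 in Water-Ethanol (adjusted p = 0.085 by edgeR) and 0.25 in NE (adjusted p = 0.0954). At an unadjusted p under 0.05 by edgeR there were 1 to 6 of the 14 and 0 to 8 of the 31. The most were 6 and 8, between Water-Ethanol and WW, where 19.3% of all genes had such a p.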

How the data were processed

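Whole-brain RNA of 16 mice was sequenced as single reads of 150 bases. The submitters' processing notes name bcl2fastq 1.8.4, Trimmomatic 0.32, TopHat2 and mm10. The authors aligned the trimmed reads and deposited whole read counts per gene, not normalized. FPKM values, which the authors computed with the Cufflinks tools and deposited, are scaled for length and library size. The program behind the counts is not given in the sources used here. Counts were normalized with TMM and tested with edgeR 4.0.16 (R 4.3.3) after its default filter on low counts, pairwise or over all 16 mice. P-values were adjusted by Benjamini-Hochberg over all genes tested, with a threshold of 0.05. Alternatives used DESeq2 1.42.0, limma 3.58.1 on log2(FPKM + 1) or log2(FPKM + 0.1), other filters and scalings, GC offsets, a cerebellar covariate and leaving out mice. Tests were run on simulated data. Figures used matplotlib 3.10.9. Gene positions are 1-based, from the count table.

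Members, lists and tests were chosen with earlier results of these data known. Named members are those with an adjusted p under 0.05, then the smallest p-values up to 4 per comparison, the highest by FPKM in each family, and those filtered out. Cacna2d3, Cacna1s, Cacna2d2 and others outside this rule were chosen after their values were seen. The values of 2 tested members, though counted in all totals, and the shared stretches of sequence are not reported here.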

Additional observations from a re-analysis of the deposited data

Results flagged for a closer look

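In 9 of 140 groups of 4 mice (35 members in 4 groups), 1 mouse stood apart from the other 3 by Dixon's criterion, which chance alone meets in about 5% of groups. In normalized counts the 8 given here were Cacnb1 in NW 10 at 3589.3 (others 2986.1 to 3037.2), Cacng5 in WW 19 at 1225.2 (1091.8 to 1104.6), Cacna2d3 in NE 2 at 3180.6 (3499.4 to 3561.7) and Cacna1d in WW 18 at 2022.5 (1666.5 to 1727). The others were Cacnb3 in WW 21 at 5160.1 (4307.7 to 4443), Cacnb3 in Water-Ethanol 15 at 4665.5 (4491.4 to 4519.7), Cacnb4 in WW 21 at 12408.1 (14381.9 to 14575.4) and Scn4b in NW 10 at 7497.5 (7898.8 to 7969.5). In 4 of these 8 the mouse was WW 21 or NW 10, which have low cerebellar markers.

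For Cacnb4 and Scn3a the ethanol mice lay on opposite sides of the mean of the mice on water with and without nicotine. The interaction was 0.26 for Cacnb4 (adjusted p = 0.711 by edgeR; 0.16 without NW 7) and 0.15 for Scn3a (adjusted p = 0.779 by edgeR), and neither passed the test.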

How the results depend on the processing

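Between Water-Ethanol and WW the 1 called member became 0 in limma on log2(FPKM + 1) and on log2(FPKM + 0.1), where 34 members were tested. The count also became 0 with GC content offsets and in a fit of all 16 mice. With both mice of low cerebellar markers left out, an alternative chosen after seeing the data, it became 2. Leaving out 1 mouse gave 0 to 2 members, the 2 without WW 21 (Cacna2d1 among them). Between NE and WW the count of 0 became 1 with DESeq2 (Cacna1c). For ethanol over all mice the count of 0 became 2 with DESeq2 (Cacnb2 and Cacna1c), 1 with group means of at least 50 counts, 1 with GC content offsets, 3 with the cerebellar marker score as covariate and 3 with both mice left out (Cacna1c and Cacnb2 among them in both), and leaving out 1 mouse gave 0 to 2, with 2 without NW 10 (Cacnb2 and Cacna1c), 1 without WW 18 and 1 without Water-Ethanol 14 (Cacna1c in both) and 1 without NW 7 (Cacna2d1). All genes called between Water-Ethanol and WW in these fits numbered 0 in limma, 40 with GC offsets, 28 in the fit of all mice, 802 with the covariate and 797 without both mice, against 70 in the reported fit. For ethanol they numbered 1073 with DESeq2, 825 with the higher count minimum, 872 with GC offsets, 1175 with the covariate and 1061 without both mice, against 702. Such totals are not given here for the ethanol fits without 1 mouse. Their member counts thus cannot be set against all genes. The cause of the changed counts was not tested. Members named for their p-values kept their sign in each alternative, whereas Cacna1a between NW and WW (-0.04) and Cacng7 between Water-Ethanol and WW (-0.03) changed sign without both mice. GC offsets or NW 7 also moved differences by over 1.5 times, as for Cacnb4 for nicotine (-0.10, and -0.04 and -0.06) and between NE and NW (0.18, and 0.09 without NW 7). No paired analysis was possible because no mouse number is shared between groups. In the simulation most changes of 0.25 on the log2 scale were missed (38.8% recovered). Whole brain averages over regions.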
